A study of Mus musculus with 7 samples.

Results

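Chemerin is a small secreted protein encoded by Rarres2. Its 3 receptors are encoded by Cmklr1, Gpr1 and Ccrl2, and a further secreted protein is encoded by Mia. These 5 genes were found by symbol in all 7 count tables, out of 32531 symbols, and 5 of 5 passed the filter on low counts. The members were chosen by their values in the contrast of tagged-ribosome RNA against total RNA: Rarres2 and Mia were high in it, and the receptors were listed for their known binding of chemerin. The values of that contrast are therefore given for these 5 genes as a description, with no test.

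The mice were adults of the line Dcdc2a-TRAP ES2575, and RNA came from the dissected area around their brain ventricles. In translating ribosome affinity purification (TRAP), a transgene puts EGFP on the ribosomal protein Rpl10a in the cells where a chosen gene's control region is active, here that of Dcdc2a, and polysomes with the tag are captured from the homogenate with antibodies to EGFP. The IP group is this ribosome-bound RNA (3 libraries, numbered 1, 3 and 4), and the Input group is total RNA (4 libraries, numbered 1 to 4). All 7 libraries are from the same transgenic line, the labels give no treatment, and they do not say how many animals went into a library or whether libraries come from separate animals, so the spread between libraries may be technical. No IP from mice without the tag was used here, so RNA that sticks to the beads has no measured level.

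Counts assigned to genes ranged from 37203427 to 52175180 per library. At that depth 3 counts correspond to 0.0585 to 0.0819 counts-per-million (CPM, scaled with TMM factors), counting error only. IP 1 stood apart from the other IP libraries: the summed level of 15 markers of motile cilia of ependymal cells, the cells that line the ventricles, was 296 CPM in IP 1 against 3450 and 2839 in IPs 3 and 4, and 58.5 to 77.9 in the Inputs. Of these 15 markers 14 passed the test as higher in IP (edgeR's quasi-likelihood test, Benjamini-Hochberg adjusted p under 0.05) and 0 were at 0 in every library. Dcdc2a itself, whose control region drives the tag, had 43.5, 411 and 174 CPM in IPs 1, 3 and 4, and 27.7 to 73.9 in the Inputs, so IP 1 lay inside the Input range. Dcdc2a did not pass, at a log2 fold of 2.21 ± 0.63 (SE, adjusted p from edgeR = 0.0743, and 0.101 with the replicate number as a block).

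Chemerin is secreted as an inactive precursor, and proteases in the extracellular fluid activate or inactivate it by trimming its carboxyl end. CMKLR1 is the receptor through which chemerin attracts macrophages, dendritic cells and natural killer cells, by way of inhibitory G proteins. GPR1 also binds chemerin and signals more weakly, and CCRL2 is an atypical receptor that binds chemerin without signalling and holds it at the cell surface. Rarres2 takes its full name, retinoic acid receptor responder, from its induction by retinoids, and chemerin of tanycytes, the specialised ependymal cells of the third ventricle, has been studied in the control of body weight. Mia (melanoma inhibitory activity) encodes a small extracellular protein of cartilage and melanoma cells that binds matrix proteins and integrins.

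The promoters are shown to set Mia, which was high in every IP, beside receptors that were not. RefSeq promoters (GRCm38.p6, windows of 300 bases around a start) were matched by symbol for 4 of the 5 members, with 7 starts in all, and none was matched for Rarres2. Each was searched on both strands for AGGTCA (a nuclear receptor half-site, as bound by retinoid receptors), GTTGCC (a half-site of the RFX factors of ciliated cells), TGTTTAC (a forkhead core, the family of Foxj1) and ACAATG (a SOX core). Each window with a match held only 1, so no overlap of motifs could occur. Capitals mark matches, the sequences run 5′ to 3′ on the minus strand, and the coordinates are those of the window: Mia at chr7:27181100-27181399, Cmklr1 at chr5:113643554-113643853 and the first listed start of Ccrl2 at chr9:111057469-111057768.
Mia: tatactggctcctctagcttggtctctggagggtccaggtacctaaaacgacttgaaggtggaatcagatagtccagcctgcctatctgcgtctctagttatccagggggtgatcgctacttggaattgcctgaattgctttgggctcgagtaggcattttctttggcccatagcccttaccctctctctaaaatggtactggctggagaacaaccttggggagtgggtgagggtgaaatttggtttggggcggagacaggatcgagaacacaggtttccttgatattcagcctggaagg
Cmklr1: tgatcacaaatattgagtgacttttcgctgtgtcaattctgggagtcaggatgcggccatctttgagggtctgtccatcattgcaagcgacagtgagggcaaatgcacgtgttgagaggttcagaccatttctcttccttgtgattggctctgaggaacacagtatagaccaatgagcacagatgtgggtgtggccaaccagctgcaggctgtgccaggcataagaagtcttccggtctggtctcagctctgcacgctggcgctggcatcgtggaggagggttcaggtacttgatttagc
Ccrl2: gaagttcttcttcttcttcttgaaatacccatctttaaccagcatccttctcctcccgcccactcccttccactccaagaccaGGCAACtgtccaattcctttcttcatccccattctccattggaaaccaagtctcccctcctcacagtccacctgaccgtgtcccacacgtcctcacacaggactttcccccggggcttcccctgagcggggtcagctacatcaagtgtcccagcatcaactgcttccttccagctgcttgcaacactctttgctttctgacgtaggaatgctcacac

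The Mia and Cmklr1 windows held none of the 4 motifs. The Ccrl2 window held GTTGCC on the reverse strand, a motif found in 12.5% of the 32851 promoter windows of this length. Of the other starts, 1 of Gpr1 held AGGTCA on the reverse strand (16.3% of all windows), and the other start of Gpr1 and the other starts of Ccrl2 held none. TGTTTAC occurred in 3.65% and ACAATG in 12.6% of all windows. These matches describe the letters of the windows only.

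Rarres2 (ENSMUSG00000009281.6, chromosome 6, 48569696 to 48572789, minus strand, mm10), the ligand, was high in the IP libraries and low in the Inputs. It had 225, 2765 and 4512 counts in IPs 1, 3 and 4, and 8, 38, 41 and 21 across Inputs 1 to 4. These are 4.50, 60.9 and 88.0 CPM in IP and 0.196, 0.849, 1.12 and 0.516 CPM in Input. Every IP library was above every Input, and IP 1 lay far below the other IP libraries, as it did for the cilium markers. The 3 IP libraries averaged 51.1 ± 42.6 CPM (SD) and the 4 Inputs 0.670 ± 0.401 (SD), a fitted log2 fold of 6.25 ± 0.97 (SE). Within sequencing lanes, the log2 ratio to the Input of the same number was 4.24 for number 1, 5.71 for number 3 and 7.29 for number 4 (log2 CPM, prior count 2). Without IP 1 the fitted log2 fold was 6.79. Of the merged exon bases of Rarres2, 33.6% (892 bases) are shared with Lrrc61 on the plus strand. Strand was not stated for the counting, so reads from this stretch cannot be told apart and the Rarres2 level is uncertain. Reads assigned to several genes, which overlapping genes give, were 1.51% to 2.01% of an IP library and 9.33% to 12.9% of an Input, and their part in the Rarres2 values was not tested. Lrrc61, a leucine-rich repeat gene, had 50.7 to 75.4 CPM in IP and 31.1 to 39.6 in Input (log2 fold 0.94 ± 0.23 SE, adjusted p from edgeR = 0.0400, and 0.157 with the replicate number as a block).

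**Figure D1:**
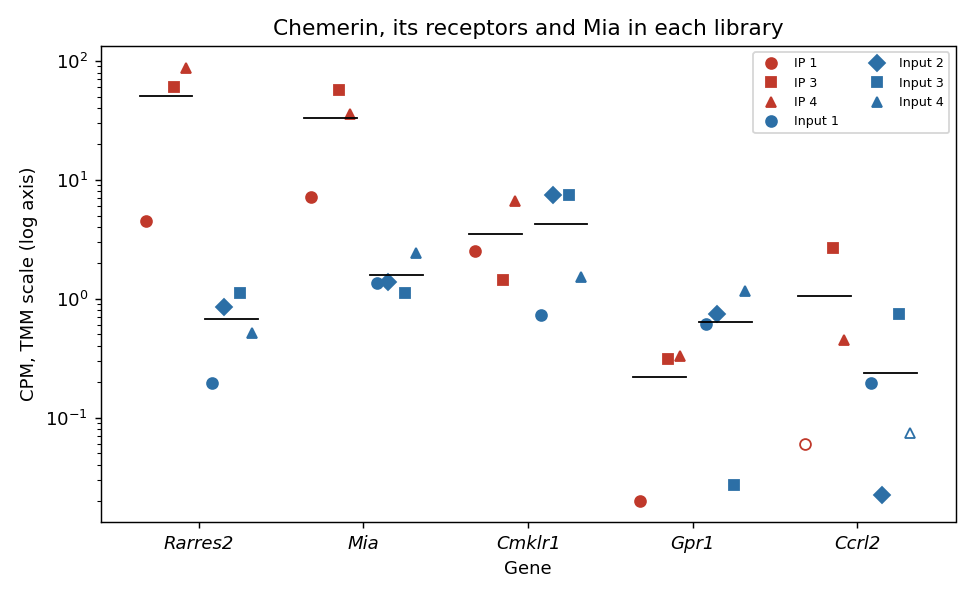
CPM on the TMM scale (log axis) of the 5 genes in each library, IP in red and Input in blue, with a symbol for each library number and a black line at each group mean. Open symbols stand for 0 counts and are drawn at the level of 3 counts. Rarres2 and Mia have every IP above every Input, and the IP and Input ranges of the 3 receptors overlap.

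Mia (ENSMUSG00000089661.9, chromosome 7, 27179742 to 27181157, minus strand) was also high in IP. It had 7.20, 56.8 and 36.0 CPM in IPs 1, 3 and 4 (360, 2580 and 1849 counts), and 1.35, 1.39, 1.12 and 2.41 CPM across Inputs 1 to 4. The lowest IP was above the highest Input, and the Inputs were close together, with a ratio of 2.15 between the highest and the lowest against 5.70 for Rarres2. The 3 IP libraries averaged 33.3 ± 24.9 CPM (SD) and the 4 Inputs 1.56 ± 0.573 (SD), a fitted log2 fold of 4.41 ± 0.63 (SE). The log2 ratios within lanes were 2.38, 5.61 and 3.88 for numbers 1, 3 and 4, so the largest was in number 3 where for Rarres2 it was in number 4. Without IP 1 the fitted log2 fold was 4.89. GENCODE places the model Gm21983 over 41.2% of the exon bases of Mia on the same strand. That model is not among the symbols of the count tables, so reads of it within Mia exons may be counted to Mia.

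Per kb of merged exons, Mia stood above Rarres2 in every library, and the gap was smaller in IP. The level of Mia was 1.09 to 4.28 times that of Rarres2 in the IP libraries and 2.67 to 18.4 times in the Inputs, ranges that overlap. In IPs 3 and 4 the order depends on the lengths, 994 bases for Mia and 2656 for Rarres2. No other length was tried for it. In CPM Rarres2 was above Mia in IP 3 (60.9 against 56.8) and IP 4 (88.0 against 36.0). Mia was above in IP 1 and in Inputs 1, 2 and 4, and both had 1.12 in Input 3. Over all 7 libraries the log2 CPM of the 2 genes had a Pearson correlation of 0.952, a description over libraries that share the group difference.

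Cmklr1 (ENSMUSG00000042190.12, chromosome 5, 113612354 to 113650426, minus strand), the signalling receptor, varied more between libraries than between groups. Its CPM were 2.54, 1.43 and 6.61 in IPs 1, 3 and 4 (127, 65 and 339 counts) and 0.735, 7.39, 7.42 and 1.52 across Inputs 1 to 4 (30, 331, 272 and 62 counts). Inputs 2 and 3 were the highest libraries and Input 1 the lowest, so the IP values lay inside the Input range. The 3 IP libraries averaged 3.53 ± 2.73 CPM (SD) and the 4 Inputs 4.27 ± 3.64 (SD), a log2 fold of -0.27 ± 0.89 (SE). The sign of the fold turned positive without IP 3 (0.10), without Input 2 (0.13) or Input 3 (0.13), and with the replicate block (0.72), to whose fold Input 2 adds nothing. Within lanes the log2 ratio was 1.73 for number 1, -2.34 for number 3 and 2.09 for number 4. The ratio of the highest to the lowest Input was 10.1. With 0.1 CPM added to both values it was 9.00, and 16.8% of the 6436 tested genes with a mean Input level of 0.5 to 10 CPM had a ratio at least as large (median 3.26). These genes were not matched to Cmklr1 in level within that range, and such ratios tend to be larger at low counts.

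Gpr1 (ENSMUSG00000046856.13, chromosome 1, 63182691 to 63214543, minus strand), the weaker signalling receptor, was at low levels throughout. It had 1, 14 and 17 counts in IPs 1, 3 and 4 and 25, 33, 1 and 47 across Inputs 1 to 4, or 0.0200, 0.308 and 0.331 CPM in IP and 0.613, 0.737, 0.0273 and 1.15 CPM in Input. A library of each group, IP 1 and Input 3, held a single count, below the level of 3 counts, and IP 3 and IP 4 were below the other Inputs. The 3 IP libraries averaged 0.220 ± 0.173 CPM (SD) and the 4 Inputs 0.633 ± 0.465 (SD), a log2 fold of -1.52 ± 1.45 (SE). The log2 ratio within lanes was -1.67 for number 4. In the other numbers the ratio rests on the single counts: IP over Input was 0.0327 in number 1 (exact 95% interval 7.95e-04 to 0.199) and 11.3 in number 3 (1.72 to 477), counting error only. With 0.1 CPM added, the ratio of the highest to the lowest Input was 9.85, reached by 15.2% of those 6436 genes, most of which need not be as low in level as Gpr1.

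Ccrl2 (ENSMUSG00000043953.12, chromosome 9, 111054486 to 111057519, minus strand), the non-signalling receptor, was highest in a single IP library. It had 0, 122 and 23 counts in IPs 1, 3 and 4 and 8, 1, 27 and 0 across Inputs 1 to 4. The IP levels were 0, 2.69 and 0.448 CPM and the Input levels 0.196, 0.0223, 0.737 and 0 CPM. The counts of 0 allow up to 0.0600 CPM in IP 1 and 0.0736 in Input 4, counting error only. Only IP 3 was above every Input. The 3 IP libraries averaged 1.04 ± 1.44 CPM (SD) and the 4 Inputs 0.239 ± 0.343 (SD), a log2 fold of 2.12 ± 1.86 (SE) that became -0.08 without IP 3. Within lanes the log2 ratio was 1.80 for number 3. Numbers 1 and 4 each have a library at 0, so they give no ratio. With 3 counts put in place of the 0, IP was 3.27-fold lower in number 1 and 6.09-fold higher in number 4. These values take the 8 and 23 counts of the other library as exact and leave out their counting error.

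**Figure D2:**
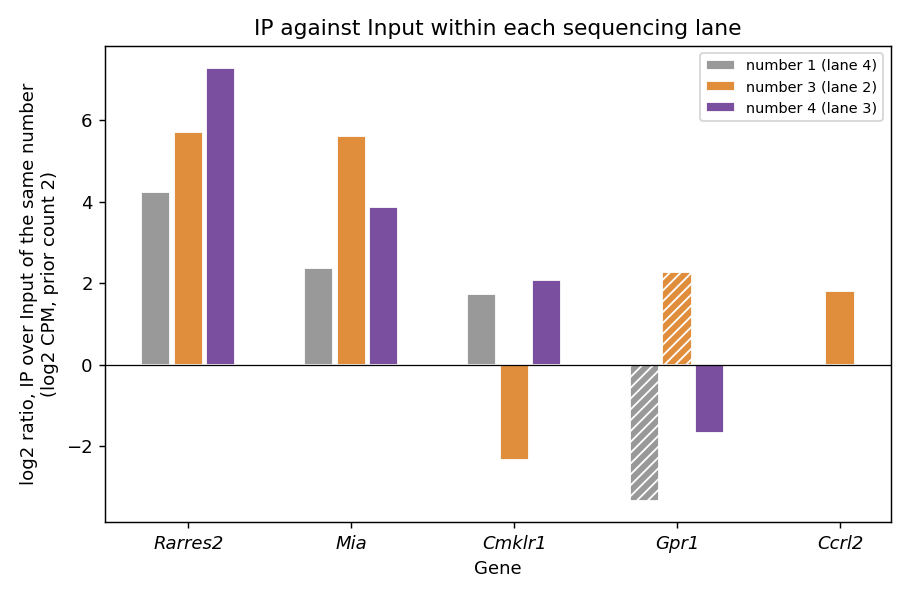
Log2 ratio of each IP to the Input of the same number (log2 CPM, prior count 2) for the 5 genes, with a bar for each number and its sequencing lane. The bars of Rarres2 and Mia are positive in all 3 lanes, from 2.38 to 7.29, and Cmklr1 and Gpr1 have bars on both sides of 0. The hatched bars of Gpr1 rest on a single count in a library, and no bar is drawn for Ccrl2 in numbers 1 and 4, where a library had 0 counts.

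Of the 5 genes 2, Rarres2 and Mia, were among the genes called higher in IP, where 3.64% of the 17375 tested genes were, and 0 were among those called lower, where 2.16% of tested genes were. In these same 2 genes every IP library was above every Input, which held for 9.54% of tested genes. As this contrast was used to choose them, nothing is read from these counts. With the replicate block Rarres2 was still among the called genes and Mia was not. Without IP 4 or any single Input, neither was. Of the 3 receptors 0 were called in either direction in the fit or any alternative run, and the SE of their folds, 0.89 to 1.86 on the log2 scale, leave room for large differences in both directions.

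Per kb of merged exons, the ligand was below its receptors in total RNA and above them in tagged-ribosome RNA. The Rarres2 level was 0.0738, 0.320, 0.421 and 0.194 CPM per kb across Inputs 1 to 4, and the summed level of Cmklr1, Gpr1 and Ccrl2 was 0.537, 2.47, 2.47 and 0.909. The ratio of ligand to receptors in the Inputs was thus 0.129 to 0.214, while the receptor sum itself spanned 0.537 to 2.47. These ratios rest on only 8, 38, 41 and 21 counts of Rarres2 in Inputs 1 to 4, and whether ligand and receptors vary together was not tested. In IPs 1, 3 and 4 Rarres2 was at 1.70, 22.9 and 33.1 CPM per kb and the receptor sum at 0.754, 1.58 and 2.24. The ratios were 2.25, 14.5 and 14.8 in that order, and no IP ratio overlapped those of the Inputs. The receptor sum did not separate the groups, with means of 1.52 ± 0.747 in IP (SD, n = 3) and 1.60 ± 1.02 CPM per kb in Input (SD, n = 4). The shift in the ratio therefore follows the ligand, whose level was used in the choice of members. In bulk RNA, fewer cells of a type and less RNA per cell cannot be told apart.

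**Figure D3:**
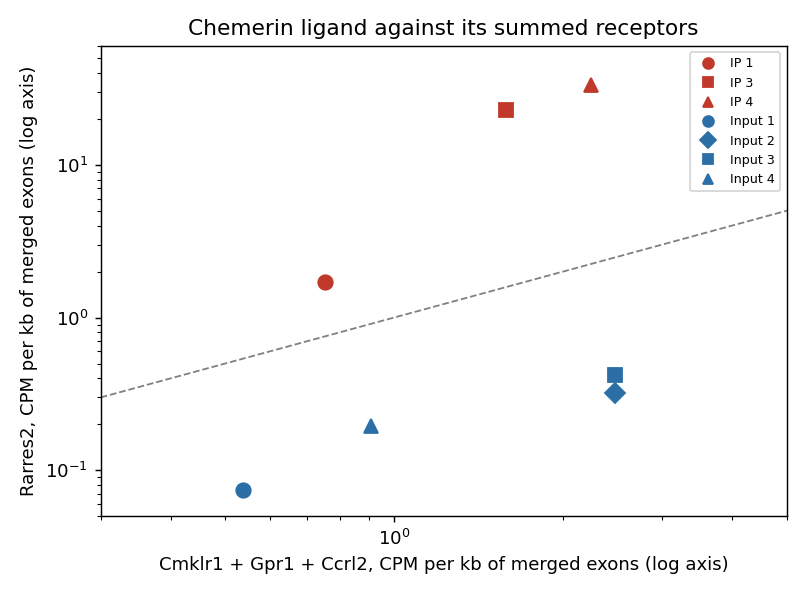
Rarres2 level against the summed level of Cmklr1, Gpr1 and Ccrl2 in each library, both in CPM per kb of merged exons on log axes, with IP in red and Input in blue. The dashed line marks equal levels. The 4 Inputs lie below it at ratios of 0.129 to 0.214, and the 3 IPs above it at 2.25 to 14.8, over a similar range of receptor levels.

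Which receptor made up the sum differed between libraries of the same group. Cmklr1 made up 98.9%, 26.6% and 86.4% of the summed receptor level per kb in IPs 1, 3 and 4, and 40.2%, 87.7%, 88.1% and 49.1% across Inputs 1 to 4. Ccrl2 made up 65.5% in IP 3 and at most 14.1% in any other library. Gpr1 made up 45.7% in Input 1 and 50.9% in Input 4, where Cmklr1 was low, and at most 11.9% in any other library. These shares rest on 63 to 379 counts per library over the 3 receptors. In order of mean level per kb in the Inputs the 5 genes were Mia (1.57 ± 0.577), Cmklr1 (1.25 ± 1.07), Gpr1 (0.254 ± 0.186), Rarres2 (0.252 ± 0.151) and Ccrl2 (0.0919 ± 0.132 CPM per kb, SD, n = 4). In IP the order was Mia (33.5 ± 25.0), Rarres2 (19.2 ± 16.0), Cmklr1 (1.03 ± 0.800), Ccrl2 (0.402 ± 0.554) and Gpr1 (0.0881 ± 0.0695 CPM per kb, SD, n = 3). In both orders every pair of neighbours overlapped in range. Within libraries, Rarres2 was above Cmklr1 per kb in 3 of 3 IPs and below it in 4 of 4 Inputs.

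Other genes of the chemerin and Mia pathways were read from 6 lists with 98 genes in all beside the 5 described, of which 69 were tested. Of these 6 were higher and 0 lower in IP, and 63 did not pass. The 6 are 8.70% of the 69, with a median log2 fold of 0.34 over the 69, where 3.64% of all tested genes were called higher and their median was 0.06. Before adjustment edgeR had 19 of the 69 higher and 7 lower with p under 0.05, and the share of all tested genes under that rule was not determined. DESeq2 called 12 higher and 0 lower, against 1396 and 962 among all genes. With the replicate block 2 of the 6, Cpn1 (adjusted p from edgeR = 0.0309) and Aldh1a2 (0.0323), kept the call, where 96 of all genes were called higher. Without Input 2, Input 3, Input 4 or IP 4, 0 genes of the lists were called, and without Input 1 only Plcb3 was. These runs called only 4 to 21 genes higher in all. Without IP 3 the number from the lists was 3, where 343 of all genes were called higher. Without IP 1 it was 20 higher and 6 lower, where 2259 and 1724 of all genes were.

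Among 20 proteases of the kinds that cut chemerin or act upstream of those that do, 9 were tested, 2 rose and 0 fell, with a median log2 fold of 0.82. Cpn1 encodes the catalytic subunit of carboxypeptidase N, which removes basic residues from the carboxyl end of peptides, chemerin among them. It rose from 0.552 ± 0.521 CPM in Input (SD, n = 4) to 16.4 ± 13.2 in IP (SD, n = 3), a log2 fold of 4.90 ± 1.16 (SE, adjusted p from edgeR = 0.0416), though only 2 of the 3 IP libraries were above every Input. Without a filter on low counts it was not called (adjusted p from edgeR = 0.0631). Klkb1, plasma kallikrein, rose from 0.172 ± 0.0333 CPM in Input to 4.80 ± 2.41 in IP, with a log2 fold of 4.78 ± 0.79 (SE; adjusted p from edgeR = 0.0147, and 0.102 with the block), with 3 of 3 IP libraries above every Input. Of the 20 proteases 7 had 0 counts in every library, among them Plg, the plasminogen gene, whose product cleaves chemerin.

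Of 22 genes of retinoid supply and of nuclear receptors 19 were tested, 2 rose and 0 fell (median log2 fold 0.42). Aldh1a2, a retinaldehyde dehydrogenase that makes retinoic acid and is known from the meninges, rose from 4.49 ± 2.13 CPM in Input to 86.5 ± 69.3 in IP, with a log2 fold of 4.27 ± 0.63 (SE; adjusted p from edgeR = 0.0129), with 3 of 3 IP libraries above every Input.

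Of 18 genes of the signal path below the receptors, from G proteins and arrestins to kinases, 18 were tested, 1 rose and 0 fell (median log2 fold 0.17). Plcb3, a phospholipase C that is activated by G proteins, rose from 3.82 ± 1.46 CPM in Input to 36.0 ± 16.5 in IP, with a log2 fold of 3.24 ± 0.45 (SE; adjusted p from edgeR = 0.0110, and 0.0606 with the block), with 3 of 3 IP libraries above every Input. Of 11 genes of the MIA family and of proteins that MIA binds or may meet in the matrix, 9 were tested, 1 rose and 0 fell (median log2 fold 1.12). This was Lamc1, a laminin chain, from 35.8 ± 6.68 CPM in Input to 93.9 ± 36.6 in IP, with a log2 fold of 1.39 ± 0.30 (SE; adjusted p from edgeR = 0.0286, and 0.0952 with the block), with 3 of 3 IP libraries above every Input. Otor, a close relative of Mia, had 0 counts in every library, and Mia3, whose product loads collagen into secretory vesicles, had a log2 fold of -0.31 ± 0.22 (SE, adjusted p from edgeR = 0.442). Otor and Mia3 were named after their values were seen.

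The lists of relatives of the ligand and of the receptors held no called gene. Of 9 genes with the cystatin-like fold of chemerin 5 were tested and 0 passed (median log2 fold -0.24). Before adjustment edgeR had 1 higher and 1 lower with p under 0.05, and DESeq2 called 0. The smallest p was that of Lxn, a carboxypeptidase inhibitor, at a log2 fold of 0.93 ± 0.33 (SE, adjusted p from edgeR = 0.127). Of 19 other chemoattractant and atypical chemokine receptors 10 were tested and 0 passed (median log2 fold -0.34), with 1 higher and 1 lower at p under 0.05 before adjustment and 1 called higher by DESeq2. The smallest p was that of Cxcr4, a chemokine receptor, at a log2 fold of 3.38 ± 0.93 (SE, adjusted p from edgeR = 0.0609). Without IP 1, 2 genes of each of these lists were called higher and 1 of the receptor list lower.

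Markers of other cells were read beside the members. Leptomeningeal fibroblast markers were higher with Rarres2 and Mia: 10 of 12 passed as higher, 0 were at 0 in every library, and their summed level was 864 to 6470 CPM in IP against 431 to 570 in Input. Mural cell markers had 4 of 12 higher, 0 at 0, and summed levels of 71.7 to 879 CPM in IP and 38.3 to 58.4 in Input. The most abundant of these markers were Ptgds, a prostaglandin synthase, and Dcn, decorin, of the fibroblasts, at 3680 ± 2567 and 207 ± 180 CPM in IP, and Acta2 and Vtn of mural cells, at 133 ± 109 and 114 ± 114 CPM (SD, n = 3). With the block 1 fibroblast marker and 0 mural markers were called, against 7 of the 15 cilium markers. In all 3 lists IP 1 was the lowest IP library, as for Rarres2 and Mia. The part of these cells in the values of Rarres2 and Mia was not tested.

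Neither choroid plexus nor tanycyte markers separated the groups in their sums. For the choroid plexus 1 of 12 was higher and the sums were 1400 to 3393 CPM in IP and 2362 to 4263 in Input. Most of each sum was Ttr, at 1117, 2667 and 2772 CPM in IPs 1, 3 and 4 and 2136 to 3908 in the Inputs. The sum therefore says little of the other choroid plexus markers. Before adjustment edgeR had 3 of the 12 higher and 0 lower with p under 0.05. Without IP 1, 4 were called higher, in a run that called 2259 genes higher in all. For tanycytes 1 of 11 was higher with sums of 190 to 239 and 203 to 262. The microglia and macrophage markers, from cells known to carry Cmklr1, had 0 of 18 called in either direction by edgeR (before adjustment 1 higher and 3 lower with p under 0.05, and 1 lower by DESeq2), with sums of 115 to 208 CPM in IP and 111 to 204 in Input. Over the 7 libraries the Pearson correlation of Cmklr1 with that sum was 0.135, as a description of libraries that also share the group difference, and the part of these cells in the Cmklr1 values was not tested. Of 12 endothelial markers 1 was higher (sums of 29.5 to 75.8 and 33.7 to 50.0 CPM). Of 12 markers of the oligodendrocyte lineage 3 were lower (sums of 3648 to 6321 and 5117 to 7347). With the replicate block 0 markers of the choroid plexus, tanycyte, endothelial and oligodendrocyte lists were called in either direction. Of 12 neuronal markers 0 were called (before adjustment 0 higher and 3 lower with p under 0.05, and 0 by DESeq2), although their sums, 7987 to 8817 CPM in IP, were below those of every Input, 10679 to 12852.

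**Figure D4:**
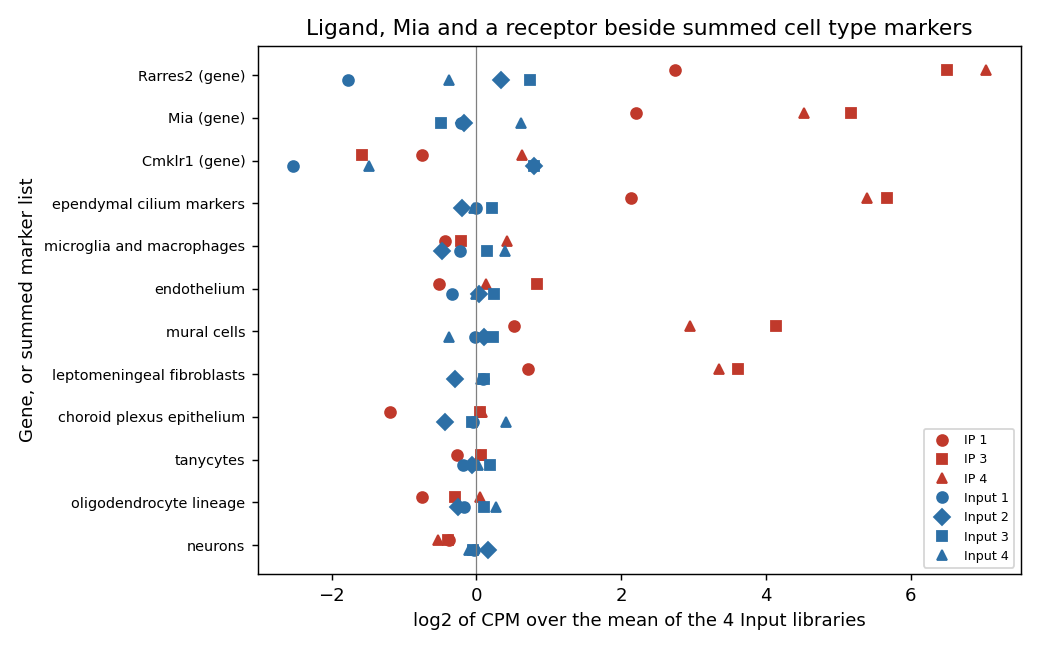
Log2 of the level in each library over the mean of the 4 Inputs, for Rarres2, Mia and Cmklr1 and for the summed CPM of 9 marker lists, IP in red above and Input in blue below on each line. Rarres2, Mia, the cilium markers and the fibroblast and mural markers have every IP to the right of every Input with IP 1 lowest, and Cmklr1 and the microglial markers do not.

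The genes most like each member were ranked by the Pearson correlation of log2 CPM over the 7 libraries among up to 15226 tested genes with a mean of at least 1 CPM. For Rarres2 these included 4430402I18Rik (0.996), Ppp5c (0.995), Mlf1 (0.993) and Crtc3 (0.992). Mlf1, which is also on the list of cilium markers, had a log2 fold of 5.10. For Mia they were Txnip (0.993), Dpf2 (0.993), Rsph10b (0.993), 2410004P03Rik (0.992) and Ropn1l (0.992), of which Rsph10b and Ropn1l encode proteins of the radial spokes of motile cilia. For Cmklr1 the highest was Kat5 (0.994), followed by Cd34 (0.938), Slc39a11 (0.935), Fam131a (0.931) and Prcc (0.927), and Kat5 had a log2 fold of only -0.05. For Gpr1 they were Ybey, Mfap1a, AK138371, Rps6 and AK083203 (0.960 to 0.986), and for Ccrl2 Ftsj3, Rab22a, Pknox1, Tusc1 and Thg1l (0.956 to 0.966). The points are the 7 libraries, which share the group difference and differ in depth, and none of these 10 genes for Gpr1 and Ccrl2 was on a list used here.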

How the data were processed

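Each library has a deposited table of whole-number counts by gene symbol, made by the authors with STAR 2.0.0e and HTSeq on mm10, per the submitters' processing notes. Strand setting, annotation and kit: not given in the sources used here. Lines for reads in no gene, in several genes or aligned to several places made up 40.1% to 52.1% of a library and entered neither library sizes nor tests. They differed between libraries: reads in several genes were 1.51% to 2.01% in IP and 9.33% to 12.9% in Input, reads in no gene 8.15% in IP 4 and 8.85% in IP 3 against 15.2% to 18.4% in the others, and reads aligned to several places 39.3% and 29.6% in these 2 against 19.8% to 21.2%.

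The fit used edgeR 4.0.16 (R 4.3.3): filterByExpr with a minimum count of 10 and a minimum total of 15, TMM factors, and the robust quasi-likelihood test on the 7 libraries with no term besides group. Benjamini-Hochberg adjustment covered the 17375 genes tested (threshold 0.05), and the script was tested on simulated data. The SE was derived from the log2 fold and its F statistic. Lengths and 1-based positions come from GENCODE release M21, on the assembly of mm10.

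Replicate numbers were taken as pairs: by the labels, numbers 1, 3 and 4 each have IP and Input on a shared sequencing lane. Across genes, the deviations from the group means correlated at only 0.0318, 0.0426 and 0.0258 within pairs, but for every IP this exceeded its value with any other Input. No label ties a number to an animal. A fit with the number as a block is an alternative.

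Further alternatives were DESeq2 1.42.0, other scalings, no filter, other gene lengths and leaving out each library. The members, gene lists and tests were chosen with earlier results of these data known. The genes named are the 5 members, up to 4 called genes per pathway list by p (or the gene with the smallest p), the 2 most abundant of each marker list, the 5 genes most like each member, and overlapping genes. The entry Drd1a was matched to Drd1. Some genes that this rule takes are not reported here.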

Additional observations from a re-analysis of the deposited data

Results flagged for a closer look

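Among the 4 Input libraries, 1 lay apart from the other 3 in 4 of the 59 genes looked at, which were the members and the named genes. The measure was the gap to the nearest library over the whole range; it was above Dixon's critical value for 4 values. Chance flags about 1 in 20 groups. None of the 4 genes is a member. Rsph10b and 2410004P03Rik, both ranked close to Mia, had 0.908 and 9.16 CPM in Input 4, against 0.588 to 0.628 and 4.40 to 5.03 in the other Inputs. Vtn, a mural cell marker, had 8.02 CPM in Input 2 against 3.60 to 4.28, and Ptgds, a fibroblast marker, had 356 CPM in Input 2 against 446 to 461.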

How the results depend on the processing

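Among all tested genes 633 were higher and 376 lower in IP. DESeq2 called 1396 and 962, and the replicate block 96 and 33. Leaving out 1 library at a time gave 4 to 2259 higher and 16 to 1724 lower genes. Of the other pathway genes 6 were higher and 0 lower; DESeq2 called 12 higher, the replicate block 2, and leaving out 1 library gave 0 to 20 higher and 0 to 6 lower. Over the alternatives the log2 fold of Rarres2 ran from 5.61 to 6.79 and that of Mia from 3.78 to 4.89, positive in 12 of 12 for each. That of Cmklr1 ran from -1.10 to 0.72 (8 of 12 negative), that of Gpr1 from -1.93 to -0.98 (12 of 12 negative) and that of Ccrl2 from -0.08 to 2.71 (10 of 11 positive); without Input 3, Ccrl2 did not pass the low-count filter and has no value. With the replicate block the log2 folds were 5.99 for Rarres2, 3.98 for Mia, 0.72 for Cmklr1, -1.37 for Gpr1 and 1.44 for Ccrl2. Other gene lengths moved the median ligand-to-receptor ratio from 14.5 to 13.2 in IP and from 0.154 to 0.137 in Input. Both shifts were smaller than the spread between libraries. For Rarres2 the other length was that of its longest transcript, 2513 bases, close to the 2656 of its merged exons. A shorter transcript would raise its level per kb against Mia and the receptors, and none was tried. Total counts could not change the ratio, as both of its levels come from the same library. Counts of 1 to 47 per library limit what can be said of Gpr1.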
